A study of Mus musculus with 10 samples.

Results

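The 8 genes described here encode the subunits of the m6A methyltransferase complex, the enzyme that writes N6-methyladenosine on messenger RNA in the nucleus. They were picked by symbol, namely Mettl3, Mettl14, Wtap, Virma, Zc3h13, Cbll1, Rbm15 and Rbm15b, and all 8 had a row among the 22457 genes of the deposited count table. The RNA came from mouse tracheal epithelial organoids, multicellular structures grown in Matrigel from basal cells, which renew the airway epithelium. Basal cells were taken from Ctrl mice or from M3-CKO mice, a line that the series names as a Mettl3 knockout. Both groups were grown in MTEC/Plus medium, with the ROCK inhibitor Y-27632 at the start, and then in differentiation medium, and were harvested on day 14, with 3 RNA-seq libraries in each group. The deleted part of Mettl3, the driver of the deletion, the age of the mice and the origin of the replicates (separate animals or cultures) were not given in the sources used here. The p-values therefore measure only the spread between these libraries. Another 4 libraries, of m6A immunoprecipitation and its input, were not analysed here, so no methylation level is reported.

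Within the complex, METTL3 is the catalytic subunit, which transfers the methyl group from S-adenosylmethionine, and METTL14 is its non-catalytic partner that helps to hold the RNA. WTAP brings this pair to nuclear speckles and joins it to a second module, in which VIRMA acts as a scaffold, ZC3H13 helps to keep the module in the nucleus, CBLL1 (also called HAKAI) is a RING-type E3 ubiquitin ligase, and RBM15 and RBM15B bind RNA and recruit the complex to particular transcripts. In many cell types m6A marks messages for decay, and the loss of METTL3 is a standard way to lower m6A on messenger RNA.

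The libraries were similar in depth, with totals of 8906375 to 10485922 counts. Levels are given in CPM, read counts scaled to a common library size after TMM correction for differences in RNA composition. Markers of airway epithelium were present in every library: the summed level of Epcam, Cdh1, Krt8, Krt18, Nkx2-1 and Foxa1 lay between 2837 and 3925 CPM. Of the markers of other cells, Ptprc reached at most 0.211 CPM and Pecam1 at most 0.193 CPM, and Cd3e, Col1a2, Cdh5, Kdr and Acan had no row. The 3 immune markers with a row (of 4 listed) summed to 54.0 to 81.8 CPM in Ctrl and to 82.0, 94.7 and 38.2 CPM in M3-CKO replicates 1 to 3, most of it Cd68. The 3 of 4 mesenchymal markers summed to 3.38 to 12.4 CPM in Ctrl and 1.35 to 3.05 CPM in M3-CKO. The 2 of 3 cartilage markers, nearly all Sox9, summed to 11.3 to 19.0 CPM in Ctrl and to 77.2, 53.5 and 11.2 CPM in the M3-CKO libraries. Col2a1 reached at most 0.437 CPM in any library, so this sum follows Sox9 alone and is not a measure of cartilage. M3-CKO replicate 3 stood apart from its group. Its correlation across genes with M3-CKO replicates 1 and 2 was r = 0.919 and 0.908, while that pair reached 0.985. The summed markers of basal cells (Krt5, Krt14, Krt15, Trp63 and Ngfr) were 1765 to 2179 CPM in Ctrl. M3-CKO replicates 1 to 3 had 579.6, 507 and 874 CPM. Krt5, Krt14 and Krt15 were lower in every M3-CKO library (edgeR adjusted p = 0.024, 0.037 and 0.0083). For Trp63 and Ngfr the groups overlapped (edgeR adjusted p = 0.16 and 0.26). The sum of the club cell markers Scgb1a1, Scgb3a2 and Cyp2f2 was 2560 to 2829 CPM in Ctrl and 1524, 1115 and 3399 CPM in the same M3-CKO libraries. Most of this sum was Cyp2f2, whose groups overlapped and which stood at 2793 CPM in M3-CKO replicate 3. The groups overlapped for Scgb3a2 as well, at 30.5, 30.2 and 37.3 CPM in Ctrl and 22.7, 9.81 and 247 CPM in M3-CKO. Scgb1a1 was higher in every M3-CKO library, at 5.57, 4.33 and 2.81 CPM in Ctrl and 83.2, 37.5 and 359 CPM in M3-CKO (adjusted p = 0.033). The multiciliated markers Foxj1, Dnah5 and Tubb4b summed to 509 to 536 CPM in Ctrl and to 545, 523 and 781 CPM in M3-CKO replicates 1 to 3, most of it Tubb4b. For each of these markers the groups overlapped. Foxj1 was arranged otherwise than the sum, at 11.6, 9.09 and 34.8 CPM in Ctrl and 73.2, 58.7 and 28.8 CPM in M3-CKO (edgeR adjusted p = 0.17). In bulk RNA, fewer cells of a type and less RNA per cell cannot be told apart, and the part of cell composition in the values below was not tested.

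Rbm15 and Cbll1 were the partner genes whose levels lay farthest above Ctrl in M3-CKO replicates 1 and 2, and Mettl3 was the gene that lay farthest below. Promoter sequences were therefore set out for these 3 genes. RefSeq promoters on build GRCm38.p6, each running from 250 bases before a gene's annotated start to 50 bases after it, were matched for 6 of the 8 genes; Mettl14 and Virma were not matched. All 3 genes printed here lie on the minus strand, at chr14:52305075-52305374 for Mettl3, chr3:107333240-107333539 for Rbm15 and chr12:31499567-31499866 for Cbll1, and each run reads 5′ to 3′ along the gene. Capitals mark matches on either strand to CCGGAAG (the ETS motif) or GGGCGG (the GC box); matches to the same motif may overlap.

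Mettl3: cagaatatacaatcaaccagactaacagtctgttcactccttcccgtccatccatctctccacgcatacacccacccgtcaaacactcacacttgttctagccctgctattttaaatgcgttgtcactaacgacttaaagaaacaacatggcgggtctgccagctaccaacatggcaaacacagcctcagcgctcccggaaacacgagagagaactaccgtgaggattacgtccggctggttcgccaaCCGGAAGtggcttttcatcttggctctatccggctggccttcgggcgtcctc

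Rbm15: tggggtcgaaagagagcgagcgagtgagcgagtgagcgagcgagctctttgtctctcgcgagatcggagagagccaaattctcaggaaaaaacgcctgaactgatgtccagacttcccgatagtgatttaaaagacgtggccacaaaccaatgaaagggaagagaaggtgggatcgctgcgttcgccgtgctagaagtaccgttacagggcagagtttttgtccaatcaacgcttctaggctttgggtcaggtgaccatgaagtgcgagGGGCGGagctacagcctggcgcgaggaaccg

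Cbll1: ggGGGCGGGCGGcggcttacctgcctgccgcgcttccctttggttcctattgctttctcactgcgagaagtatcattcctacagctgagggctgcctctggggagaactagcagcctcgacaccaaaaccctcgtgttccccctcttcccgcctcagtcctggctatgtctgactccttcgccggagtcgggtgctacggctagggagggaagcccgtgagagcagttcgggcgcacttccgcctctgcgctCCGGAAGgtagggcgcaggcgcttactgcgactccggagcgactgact

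The ETS letters occurred in the Mettl3 and Cbll1 windows, close to the annotated start, and not in that of Rbm15. The GC box occurred in the Rbm15 and Cbll1 windows and not in that of Mettl3. Among the matched genes not printed, the GC box occurred for Rbm15b, Zc3h13 and Wtap, and the ETS letters for Zc3h13 alone. Over all 32851 promoters in the table, 8.86% held the ETS letters and 35.7% the GC box. None of the 3 windows held TGACGTCA (the cAMP response element, in 1.79% of all promoters), CACGTG (the E-box, 7.15%) or TATAAA (the TATA box, 13.6%). The base composition was 52.0% G and C for Mettl3, 54.3% for Rbm15 and 63.3% for Cbll1. A match describes the letters only, and no factor binding was analysed here.

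The targeted catalytic subunit came first. Mettl3 was counted 137, 161 and 168 times in Ctrl replicates 1, 2 and 3, which is 14.96, 17.02 and 18.9 CPM. It was counted 115, 90 and 97 times in M3-CKO replicates 1, 2 and 3, which is 11.1, 10.3 and 9.87 CPM. Every M3-CKO library was below every Ctrl library, at 58.2% to 65.5% of the Ctrl mean, and the M3-CKO libraries lay close together (coefficient of variation 6.07%, against 11.5% in Ctrl). At a mean count of 128 per library, counting alone gives a coefficient of variation of about 8.84%. The log2 fold change was -0.70 (SE 0.21, 95% interval -1.20 to -0.21), and the gene did not pass the test across all genes (adjusted p = 0.12). A count over the whole gene can hold reads from parts outside the deletion, so it does not measure how much intact message was left. Mettl3 overlaps Tox4 in the GRCm38.p6 annotation, and reads from shared stretches cannot be assigned with certainty. For Tox4 itself the log2 fold change came to -0.30 (SE 0.17, edgeR adjusted p = 0.38). Its levels were 146, 119 and 129 CPM in Ctrl and 118, 115 and 86.6 CPM in M3-CKO. All its M3-CKO libraries were thus below all Ctrl libraries, as for Mettl3 and for 13.5% of all genes tested.

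**Figure D1:**
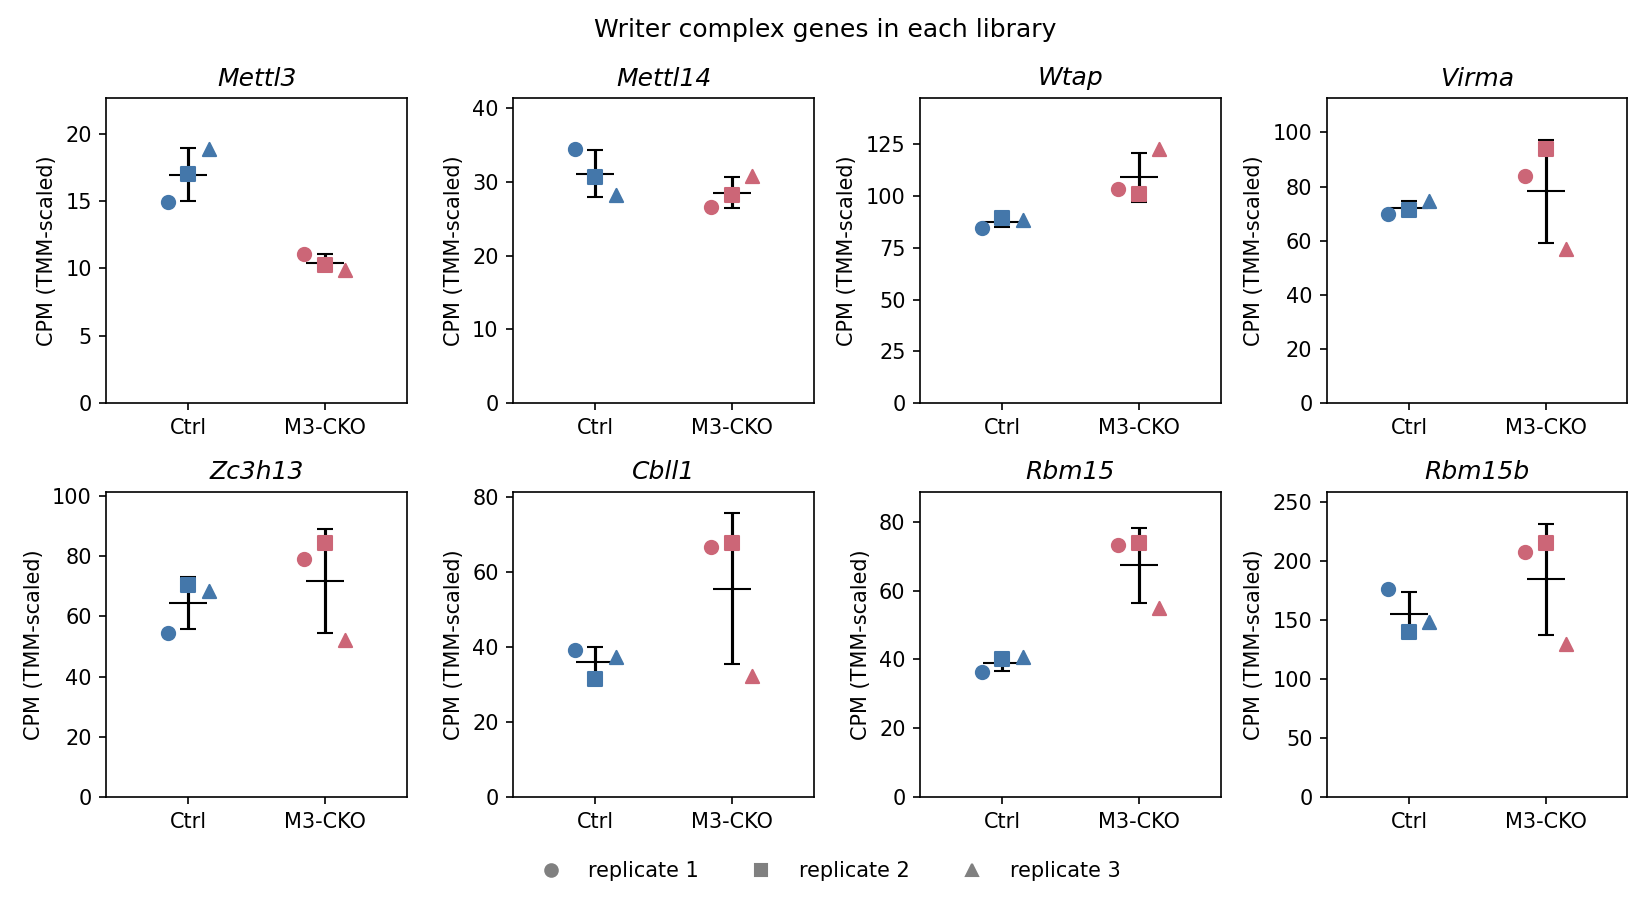
TMM-scaled CPM (y axis, from 0, own scale in each panel) of the 8 writer complex genes in Ctrl (blue) and M3-CKO (red) libraries; symbols give the replicate, horizontal bars the mean of 3 libraries and whiskers 1 SD. Mettl3 is lower in all 3 M3-CKO libraries, Wtap and Rbm15 are higher in all 3, and for Virma, Zc3h13, Cbll1 and Rbm15b M3-CKO replicate 3 lies well below replicates 1 and 2.

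Mettl14, whose protein pairs directly with METTL3, stood at 34.5, 30.7 and 28.2 CPM in the Ctrl libraries and at 26.6, 28.3 and 30.8 CPM in the M3-CKO libraries. The groups overlapped, with M3-CKO averaging 91.8% of Ctrl. Its log2 fold change was -0.12 (SE 0.17, adjusted p = 0.74), with a 95% interval of -0.52 to 0.28. Leaving out single libraries moved the value between -0.20 (without Ctrl replicate 3) and -0.04 (without Ctrl replicate 1), with -0.07 and -0.19 without M3-CKO replicates 1 and 3. Taken for this gene alone, that interval reaches from 69.6% to 121% of the Ctrl level. Among the partner genes, Mettl14 was the only one with a negative log2 fold change, in the fit of all 6 libraries.

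Wtap, the adaptor between the catalytic pair and the second module, was steady in Ctrl and higher in each M3-CKO library. It stood at 84.4, 89.1 and 88.2 CPM in Ctrl and, in the same order of replicates, at 103, 101 and 123 CPM in M3-CKO. The groups did not overlap, and M3-CKO replicate 3 was the highest library. The log2 fold change of 0.32 (SE 0.14, 95% interval -0.01 to 0.65) did not pass the test (adjusted p = 0.26).

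The scaffold gene Virma and Zc3h13 shared a pattern within M3-CKO. Virma stood at 70.0, 71.5 and 74.8 CPM in Ctrl and at 83.9, 93.9 and 57.1 CPM in M3-CKO. M3-CKO replicates 1 and 2 were thus above every Ctrl library, and replicate 3 was below every one of them. Zc3h13 stood at 54.5, 70.3 and 68.4 CPM in Ctrl and at 79.0, 84.6 and 52.2 CPM in M3-CKO, with the same arrangement. The log2 fold changes were 0.12 (SE 0.20, adjusted p = 0.79) for Virma and 0.16 (SE 0.22, adjusted p = 0.74) for Zc3h13. Both rested on single libraries: Virma was at 0.30 without M3-CKO replicate 3, 0.07 without M3-CKO replicate 1 and, with its sign changed, -0.02 without M3-CKO replicate 2. Zc3h13 was at 0.34, 0.09 and 0.04 without the same libraries, and at 0.06 without Ctrl replicate 1.

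Cbll1, the gene of the ubiquitin ligase HAKAI, was the member with the widest spread in M3-CKO. Its level was 39.3, 31.5 and 37.3 CPM in Ctrl, and 66.7, 67.9 and 32.2 CPM in M3-CKO replicates 1, 2 and 3. M3-CKO replicates 1 and 2 were at 185% and 188% of the Ctrl mean, while replicate 3, at 89.5%, lay within the Ctrl range. The coefficient of variation was 36.4% in M3-CKO and 11.2% in Ctrl. With all 6 libraries the log2 fold change was 0.63 (SE 0.29, 95% interval -0.05 to 1.30, adjusted p = 0.28). Cbll1 was called once M3-CKO replicate 3 was left out, at 0.90 (SE 0.14, adjusted p = 0.0038).

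The RNA-binding subunit gene Rbm15 came closest to the threshold. It stood at 36.3, 40.1 and 40.8 CPM in Ctrl and at 73.2, 73.9 and 54.8 CPM in M3-CKO. All M3-CKO libraries were above all Ctrl libraries, at 140.5% of the Ctrl mean in replicate 3 and 187.5% and 189.5% in replicates 1 and 2. The M3-CKO mean of 67.3 ± 10.8 CPM (SD, n = 3) compares with 39.0 ± 2.43 CPM in Ctrl. The log2 fold change was 0.79 (SE 0.17, 95% interval 0.39 to 1.19), with an adjusted p of 0.058 and an unadjusted p of 0.0021. DESeq2's Wald test called the gene (adjusted p = 0.0050), as did edgeR without M3-CKO replicate 3 (log2 fold change 0.91, adjusted p = 0.00225). Leaving out any other single library gave adjusted p from 0.17 to 0.23. Rbm15 overlaps Slc16a4 in the annotation. Slc16a4 was low in every library, at 1.06 to 2.96 CPM, and its log2 fold change had the opposite sign (-0.49, SE 0.44, adjusted p = 0.59).

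Rbm15b, the paralogue of Rbm15 that acts beside it in the complex, stood at 176, 139.9 and 148 CPM in Ctrl. In M3-CKO it stood at 208, 216 and 130.1 CPM, so that replicates 1 and 2 were above every Ctrl library and replicate 3 was below every one. Its log2 fold change was 0.25 (SE 0.22, 95% interval -0.26 to 0.76, adjusted p = 0.57). Rbm15b too was called when M3-CKO replicate 3 was left out, at 0.45 (SE 0.13, adjusted p = 0.039), while without M3-CKO replicates 1 or 2 the value was 0.16 or 0.14. Rbm15b overlaps Dcaf1 in the annotation, and Dcaf1 showed the same arrangement of M3-CKO libraries, at 83.7, 91.3 and 56.4 CPM against 53.3 to 58.4 CPM in Ctrl. The strand setting of the counting is not given, so reads from stretches shared by overlapping genes cannot be assigned with certainty.

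**Figure D2:**
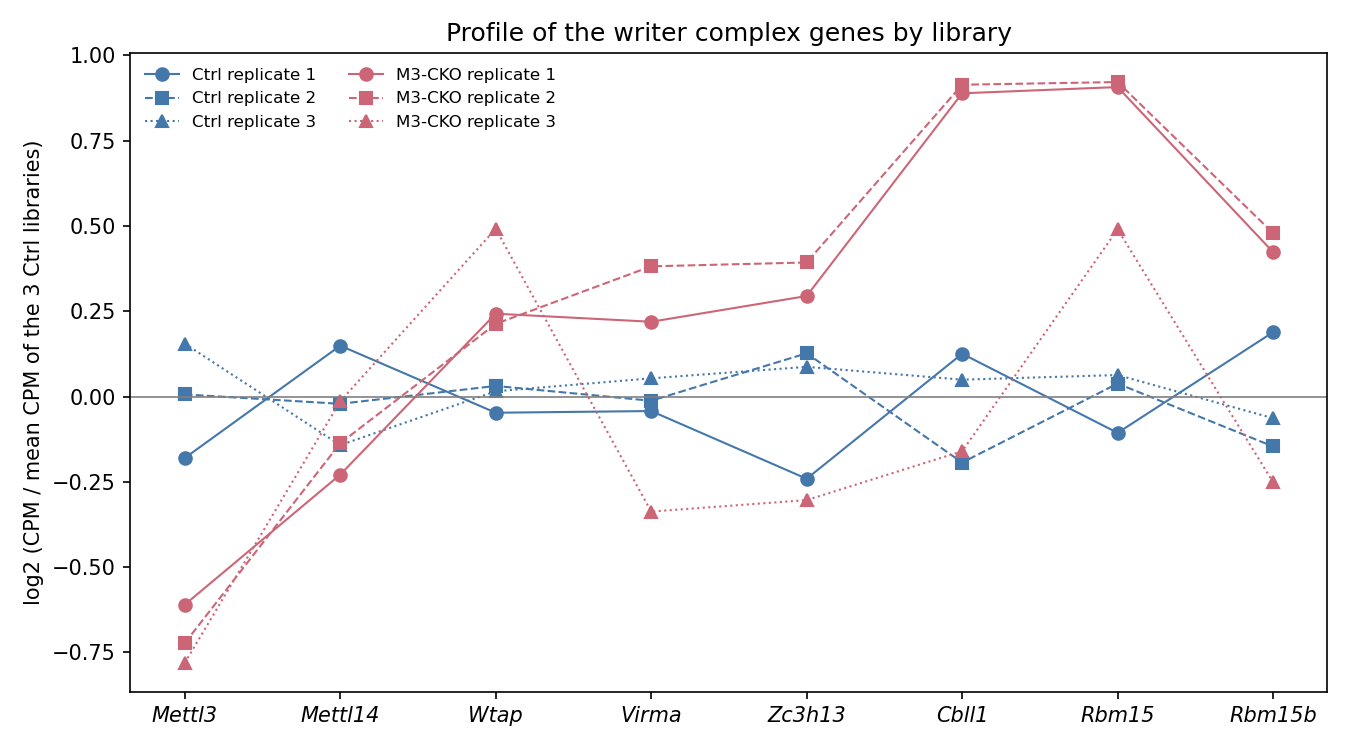
log2 of each library's CPM over the mean CPM of the 3 Ctrl libraries (y axis) for the 8 genes (x axis); lines join the values of 1 library, Ctrl in blue and M3-CKO in red. M3-CKO replicates 1 and 2 follow each other closely, with Cbll1 and Rbm15 at 0.89 to 0.92, while replicate 3 lies below 0 for Virma, Zc3h13, Cbll1 and Rbm15b.

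The departure of M3-CKO replicate 3 was uneven over the complex. Relative to the mean of replicates 1 and 2 on the log2 scale, it differed by -0.11 for Mettl3, 0.17 for Mettl14 and 0.26 for Wtap. For the genes of the second module the difference was -0.42 for Rbm15, -0.64 for Virma, -0.65 for Zc3h13, -0.70 for Rbm15b and -1.06 for Cbll1. Over the 9642 tested genes with a mean of at least 10 CPM and no count of 0, the median size of this difference was 0.47. The catalytic pair, Wtap and Rbm15 differed by less and the other members by more, an even split such as a median gives. The share of these 9642 genes with a smaller difference was 13.7% for Mettl3, 20.4% for Mettl14, 30.6% for Wtap and 45.8% for Rbm15. It was 63.5% for Virma, 64.2% for Zc3h13, 68.0% for Rbm15b and 85.0% for Cbll1. The median coefficient of variation over the 9642 genes was 12.3% in Ctrl, 20.0% in M3-CKO and 6.13% in M3-CKO replicates 1 and 2 alone. Epithelial markers differed in the same library, with summed levels of 3925, 3899 and 2837 CPM in M3-CKO replicates 1 to 3; their part in the spread was not tested.

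Taking the complex as a whole, edgeR called 0 of the 8 genes at an adjusted p under 0.05, where it called 2.91% of all 13528 genes tested. At an unadjusted p under 0.05 there were 2 of 8 members, Rbm15 and Mettl3, against 20.5% of all genes. The groups did not overlap for Wtap and Rbm15, with M3-CKO above, and for Mettl3, with M3-CKO below. That is 2 and 1 of 8, where 13.7% and 13.5% of all genes had such a separation. The median log2 fold change of the 8 genes was 0.21, with 6 of 8 positive. Over all genes tested the median was 0.02, with 7019 of 13528 positive. DESeq2 called 2 of 8, Rbm15 higher and Mettl3 lower (adjusted p = 0.049), against 10.4% of all genes. With limma-voom 0 of 8 were called, against 2.23% of all genes. At an unadjusted p under 0.05 limma-voom had 2 of 8, against 2718 of 13528 genes.

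Without M3-CKO replicate 3, edgeR called 4 of 8 members, against 25.0% of all genes tested in that fit. Cbll1, Rbm15 and Rbm15b were higher and Mettl3 was lower (log2 fold change -0.67, SE 0.20, adjusted p = 0.043). The M3-CKO group then consisted of replicates 1 and 2, the closest pair in the series, so its spread is narrow. When replicate 3 was left out of both groups, 2 of 8 members were called, Cbll1 and Rbm15, against 19.2% of all genes tested in that fit. Without any other single library edgeR called 0 members, with 1 or 2 at an unadjusted p under 0.05. The number of genes called over the whole table was as sensitive, at 393 with all libraries, 0, 1 and 0 without Ctrl replicates 1, 2 and 3, 14 and 18 without M3-CKO replicates 1 and 2, and 3483 without M3-CKO replicate 3. At an unadjusted p under 0.05 there were 2378 and 1963 genes without Ctrl replicates 1 and 3.

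**Figure D3:**
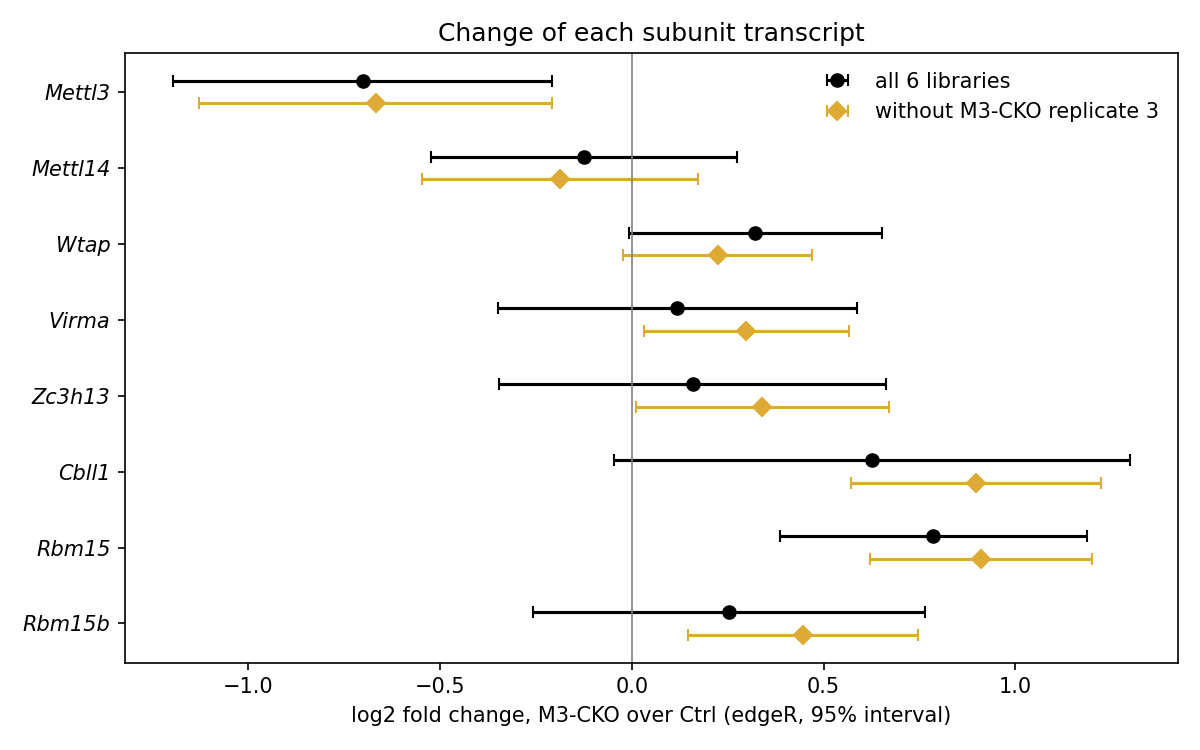
log2 fold change of M3-CKO over Ctrl (x axis) with its 95% interval for each of the 8 genes, from all 6 libraries (black circles) and without M3-CKO replicate 3 (yellow diamonds). The interval of Mettl3 lies below 0 and that of Rbm15 above 0 in both fits, and those of Virma, Zc3h13, Cbll1 and Rbm15b lie above 0 only in the fit without that library; intervals are for 1 gene at a time, not adjusted over genes.

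Whether partner genes were higher where Mettl3 was lower is answered by each partner's own change, given above. With all 6 libraries edgeR and limma-voom called 0 of the 7 partners higher, and DESeq2 called Rbm15. Over all genes tested, edgeR called 236 of 13528 higher, limma-voom 163 of 13528 and DESeq2 819 of 13516. At such shares, counts among 7 genes cannot show whether the partners differed from other genes. In edgeR the upper end of the 95% interval was 2.28-fold for Rbm15, 2.46-fold for Cbll1, 1.70-fold for Rbm15b, 1.58-fold for Zc3h13, 1.57-fold for Wtap, 1.50-fold for Virma and 1.21-fold for Mettl14. The partner's level relative to Mettl3 in the same library, where gene length and library scaling cancel between groups, describes the balance of the messages. It cannot show that a partner was higher, since a lower Mettl3 count alone raises it. The table gives no transcript lengths, so levels were not compared between genes.

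The ratio of every partner to Mettl3 was higher in every M3-CKO library than in every Ctrl library. For Rbm15 the log2 ratio was 1.28, 1.24 and 1.11 in Ctrl and 2.72, 2.85 and 2.47 in M3-CKO, a difference of means of 1.47. For Cbll1 it was 1.39, 0.89 and 0.98 in Ctrl and 2.59, 2.72 and 1.71 in M3-CKO, a difference of 1.25. The Mettl14 ratio was the closest to overlap, at 1.21, 0.85 and 0.58 in Ctrl and 1.26, 1.46 and 1.64 in M3-CKO, a difference of 0.58. The differences were 1.01 for Wtap, 0.92 for Rbm15b, 0.84 for Zc3h13 and 0.79 for Virma. Each of the 7 ratios gave an exact two-sided permutation p of 0.1, the smallest that 3 libraries against 3 allow, so none could pass 0.05. All 7 share Mettl3 as denominator, so its lower count enters each of them, and they are not 7 separate findings. The same ratio was not taken for the other genes tested, so the share of all genes that would separate in this way is not known. The separation is therefore not read as a trait of the partners.

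**Figure D4:**
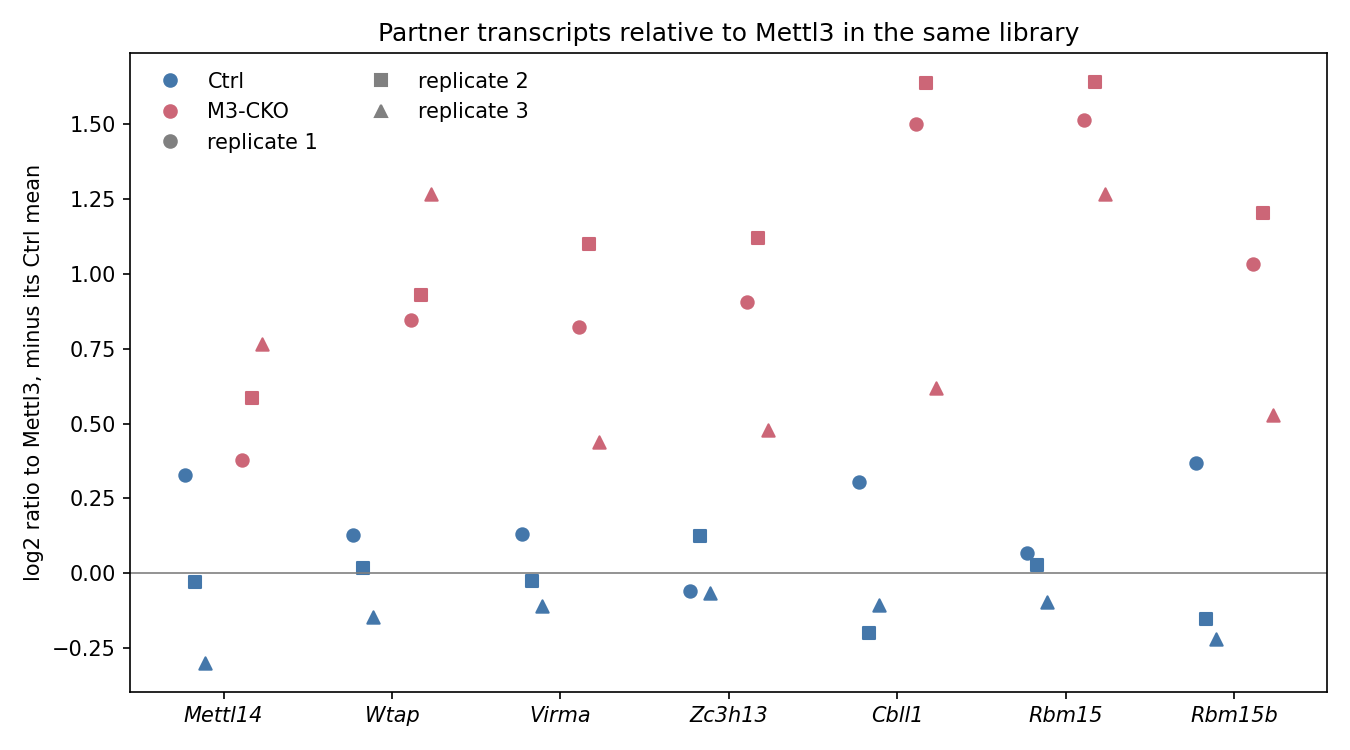
log2 ratio of each partner's CPM to that of Mettl3 in the same library, minus the mean of that ratio in Ctrl (y axis), for the 7 partner genes (x axis); blue points are Ctrl, red points M3-CKO, and symbols give the replicate. All red points lie above all blue points of the same gene, narrowly for Mettl14 and widely for Rbm15.

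Genes whose profile over the 6 libraries was most like that of Mettl3 were looked up among the 9641 other tested genes with a mean of at least 10 CPM, by the root mean square difference of log2 CPM after each gene was centred on its own mean. Those described here were Slc16a7, a monocarboxylate transporter (0.06), Atp8a1, a phospholipid flippase (0.08), Esrp2, an epithelial splicing regulator (0.09), and Rasef, a RAB-type GTPase (0.10). Slc16a7, the closest, stood at 295, 331 and 359 CPM in Ctrl and at 216, 223 and 198 CPM in M3-CKO. None of these 4 was called (adjusted p from 0.062 to 0.10). Of the complex itself, Mettl14 was the nearest to Mettl3 (0.36, rank 2442 of 9641) and Rbm15 the farthest (0.75, rank 8514). With 6 libraries in 2 groups a likeness of this kind includes the group difference, and it is given as a description.

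Genes around the complex were read from the same fit. Of 11 tested m6A readers and erasers, 1 was called higher and 0 lower, against 2.91% of all genes in either direction. The median log2 fold change of the 11 was 0.21, and 8 of 11 were positive, against 7019 of 13528 over all genes tested. The called gene was Ythdf2, a reader that directs methylated messages to decay, at 121, 112 and 107 CPM in Ctrl and 228, 217 and 185 CPM in M3-CKO (log2 fold change 0.89, SE 0.15, adjusted p = 0.032). Igf2bp1 was not tested, since it was at 0 in all Ctrl libraries and at most 0.203 CPM in M3-CKO. Of 6 genes listed for other RNA adenine methyltransferases, a list that includes Trmt112, the non-catalytic activator of METTL5, edgeR and DESeq2 called 0. Over all genes edgeR called 2.91% and DESeq2 10.4%. At an unadjusted p under 0.05 there was 1 of the 6 in edgeR, against 20.5% of all genes. That gene was Mettl16, which methylates U6 small nuclear RNA and the Mat2a message, at 31.8, 33.6 and 33.2 CPM in Ctrl and 47.6, 44.2 and 42.1 CPM in M3-CKO (log2 fold change 0.44, SE 0.15, adjusted p = 0.15). The median of these 6 was 0.16.

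Of the paralogues, Spen, a larger relative of RBM15, was not called (log2 fold change -0.09, SE 0.34, adjusted p = 0.91). Cbll2, a relative of CBLL1, had no row. Spen stood at 144, 152 and 155 CPM in Ctrl and at 165, 191 and 67.9 CPM in M3-CKO, with M3-CKO replicate 3 the lowest library as it was for Virma, Zc3h13 and Rbm15b. Of the genes of 5 proteins reported to bind or recruit the complex, edgeR called 0, against 2.91% of all genes tested. DESeq2 called 2 lower, against 10.4% of all genes in either direction. At an unadjusted p under 0.05 there were 2 in edgeR, against 20.5% of all genes, and the median of the 5 was -0.33. The lowest adjusted p was that of Thrap3, which has been found with WTAP in nuclear speckles, at 263, 256 and 273 CPM in Ctrl and 174, 189 and 203 CPM in M3-CKO (log2 fold change -0.48, SE 0.14, adjusted p = 0.10).

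Of 9 genes that supply or recycle the methyl donor, 0 were called higher and 1 lower, against 2.91% of all genes in either direction. The median of the 9 was -0.20. Ahcyl2, a relative of the enzyme that clears S-adenosylhomocysteine, fell from 295 ± 22.3 CPM to 128 ± 7.87 CPM (SD, n = 3; log2 fold change -1.21, SE 0.14, adjusted p = 0.018). Its libraries were at 319.6, 289.8 and 276 CPM in Ctrl and at 124, 122 and 137 CPM in M3-CKO. Mat2a, which encodes the S-adenosylmethionine synthase subunit of most tissues, was not called (log2 fold change -0.42, SE 0.15, adjusted p = 0.17) and is named here after its values were seen. The calls of Ythdf2 and Ahcyl2 were lost when any single library other than M3-CKO replicate 3 was left out, with adjusted p from 0.10 to 0.17 for Ythdf2 and from 0.075 to 0.12 for Ahcyl2. They were lost as well with the replicate number as a block (adjusted p = 0.10 and 0.070).

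**Figure D5:**
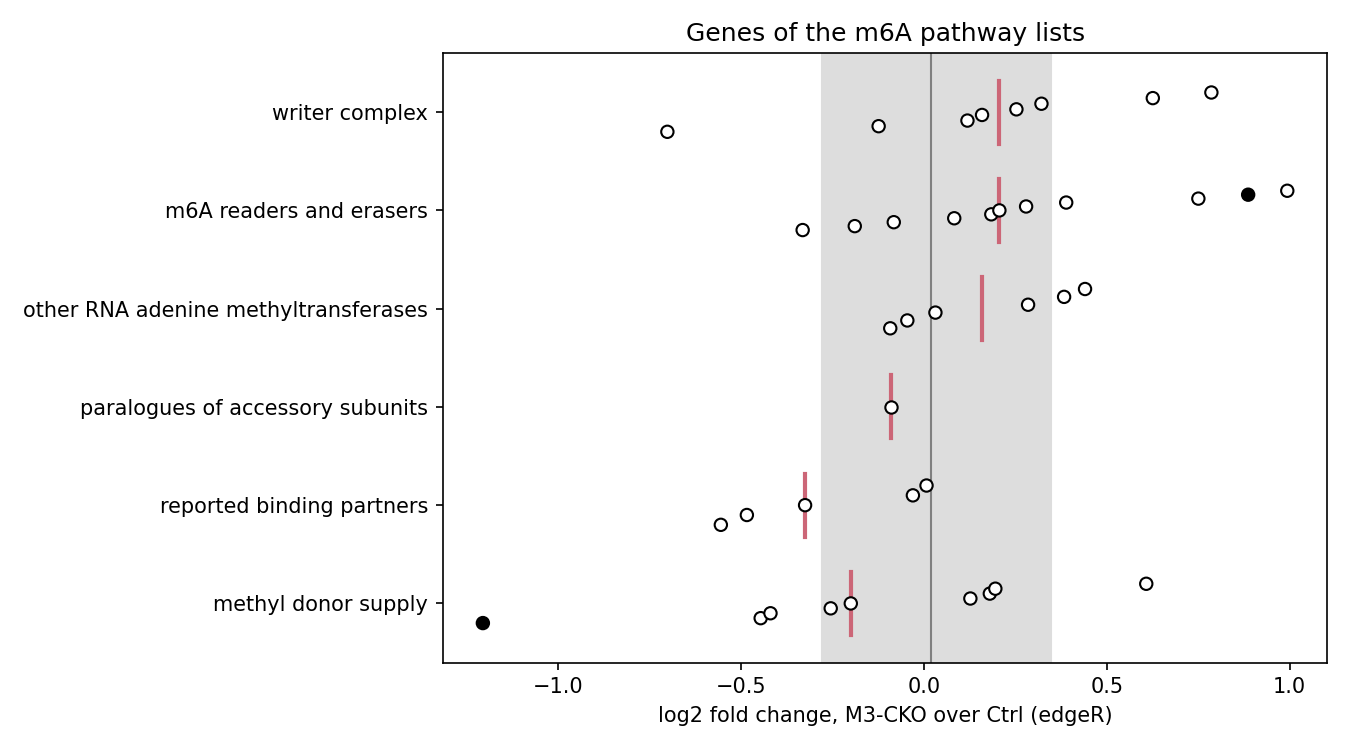
log2 fold change of M3-CKO over Ctrl (x axis) of each tested gene in the writer complex and in 5 lists of related genes (rows); filled points passed an adjusted p under 0.05 in edgeR, red bars are medians, the grey band spans the 25th to 75th percentile of all 13528 genes tested (-0.28 to 0.35) and the grey line is their median. Mettl3 is the leftmost writer gene and Rbm15 and Cbll1 the rightmost; the only filled points are Ythdf2 and Ahcyl2.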

How the data were processed

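The deposited table holds raw counts of reads or read pairs per gene symbol for 6 polyA RNA-seq libraries. The authors trimmed, aligned and counted the reads; the submitters' processing notes list HISAT2, featureCounts, Trim Galore and build mm39, with versions, annotation and strand setting not given in the sources used here. Counts were tested with edgeR 4.0.16 in R 4.3.3: filterByExpr kept 13528 genes, TMM scaled the libraries, and the quasi-likelihood test compared M3-CKO with Ctrl, two-sided, with genes called where the p adjusted by Benjamini-Hochberg over all genes tested was under 0.05. The steps were checked on simulated data. The SE is the log2 fold change over the square root of F, and intervals use the model's degrees of freedom. A level of 10 CPM rests on 87.6 to 103.6 counts. The spread between libraries of a group may be technical. Partner to Mettl3 ratios were compared by an exact permutation test over the 20 assignments. Genes named are the 8 members, up to 4 called genes of each list or the one with the lowest adjusted p, and the 5 most like Mettl3, of which 1 is not reported here. Members and lists were chosen with earlier results of these data known, so no test over a list was made. Alternatives used DESeq2 1.42.0, limma 3.58.1, other scalings and filters, the replicate number as a block, and fewer libraries. Gene overlaps and promoters come from RefSeq on GRCm38.p6, used for names, neighbours and the printed sequences.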

Additional observations from a re-analysis of the deposited data

How the results depend on the processing

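The signs of the log2 fold changes of the 8 genes held in all 16 settings for 7 of them; Virma went from 0.12 to -0.02 without M3-CKO replicate 2, and its values without single or paired libraries ran from -0.018 to 0.32. Of the alternative values for single genes, 111 kept sign and call, 8 gained a call and 1 changed sign. With DESeq2 the genes called were 1402 and the members 2, without a low-count filter the genes called were 740, and with the replicate block they were 20, with 0 members. Same-numbered libraries had correlations of deviations of -0.03, 0.02 and -0.10, and libraries of unlike number had values from -0.08 to 0.11. With only 3 libraries centred within each group, these values cannot show whether a shared number marks a shared origin. Leaving out libraries gave 0 to 3483 genes and 0 to 4 members called, 0 to 4 readers and erasers, 0 to 1 other methyltransferases, 0 to 2 binding partners and 0 to 3 methyl donor genes. The highest of each of these counts came without M3-CKO replicate 3, where 25.0% of all genes tested were called. DESeq2 called 2 readers and erasers, 2 binding partners and 2 methyl donor genes, against 10.4% of all genes tested. The log2 ratio to Mettl3 kept its sign in every alternative run, from 0.43 to 0.74 for Mettl14 and from 1.39 to 1.58 for Rbm15. The 5 genes most like Mettl3 were the same 5 under library size alone. The cause of these shifts was not tested. Counts of about 90 to 168 limit the precision for Mettl3.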
